A study of Rattus norvegicus with 6 samples.

Results

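Cell proliferation in the injured rat facial nerve was followed through 5 genes, Ccnd1, Pcna, Cdk1, Top2a and Mki67. They were chosen by Ensembl gene ID (ENSRNOG00000020918, ENSRNOG00000021264, ENSRNOG00000000632, ENSRNOG00000053047 and ENSRNOG00000028137, in that order) from the 30562 IDs of the count table. All 5 were among the 15581 genes that passed the filter on low counts. Facial nerve tissue of wild type rats was taken on day 14 after the nerve was injured. The injury model, FNI, gave 3 libraries, and injured nerve that received C-Gel-light gave the other 3. C-Gel-light is described by the series title as a hydrogel that holds Chlorella, a green alga, and releases oxygen under light. Every library thus comes from injured nerve, and the groups differ by gel and light together. Uninjured nerve, gel without light and light without gel were not analysed here. The labels give no sex or age and do not say whether a library is 1 animal or a pool. P-values therefore weigh the groups only against variation among these libraries, part of which can be technical.

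Total counts ran from 22957382 to 28997855 per library, and each library has a batch label that no other library shares. Any processing batch behind these labels cannot be told apart from the treatment. The files do not pair gene IDs with symbols, so the nerve was not checked against Schwann cell, macrophage or other cell type markers, and further cell cycle genes were not analysed here. In bulk tissue, fewer dividing cells and less of an RNA per cell cannot be told apart.

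A cell that enters the cycle first raises D-type cyclins, which activate CDK4 and CDK6 and release E2F factors from the retinoblastoma protein. E2F factors then switch on genes of DNA synthesis, and a later wave of transcription supplies the proteins of mitosis. After a peripheral nerve is injured, Schwann cells, fibroblasts, macrophages and endothelial cells in and around it divide. Ccnd1 encodes cyclin D1, which acts in G1 and answers to growth factors. Pcna encodes the sliding clamp that holds DNA polymerases on the template and also serves DNA repair. Cdk1 encodes the kinase that drives entry into mitosis, Top2a the topoisomerase that untangles sister chromatids, and Mki67 the Ki-67 protein that coats mitotic chromosomes.

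Mki67 and Ccnd1 were lower with C-Gel-light, by 2.99-fold (95% interval 1.64 to 5.45) and 2.35-fold (1.61 to 3.43), and both passed the test. The means of Top2a and Cdk1 differed by more, 4.17-fold (1.53 to 11.4) and 3.47-fold (1.25 to 9.66), but varied more between libraries and did not pass it. Pcna was 1.06-fold higher in FNI than with C-Gel-light (0.917 to 1.23) and did not pass. The test was the quasi-likelihood F test of edgeR over all 15581 genes, with a Benjamini-Hochberg adjusted p under 0.05 as the threshold. Thus 2 of the 5 genes were called, both lower, where 14.8% of all tested genes were called in either direction and 7.7% were called lower. In 4 of the 5 the highest C-Gel-light value was below the lowest FNI value, which held for 20.8% of all tested genes (39.1% did not overlap in either direction). Genes of the cell cycle are often expressed together, so these are not 5 independent observations.

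**Figure D1:**
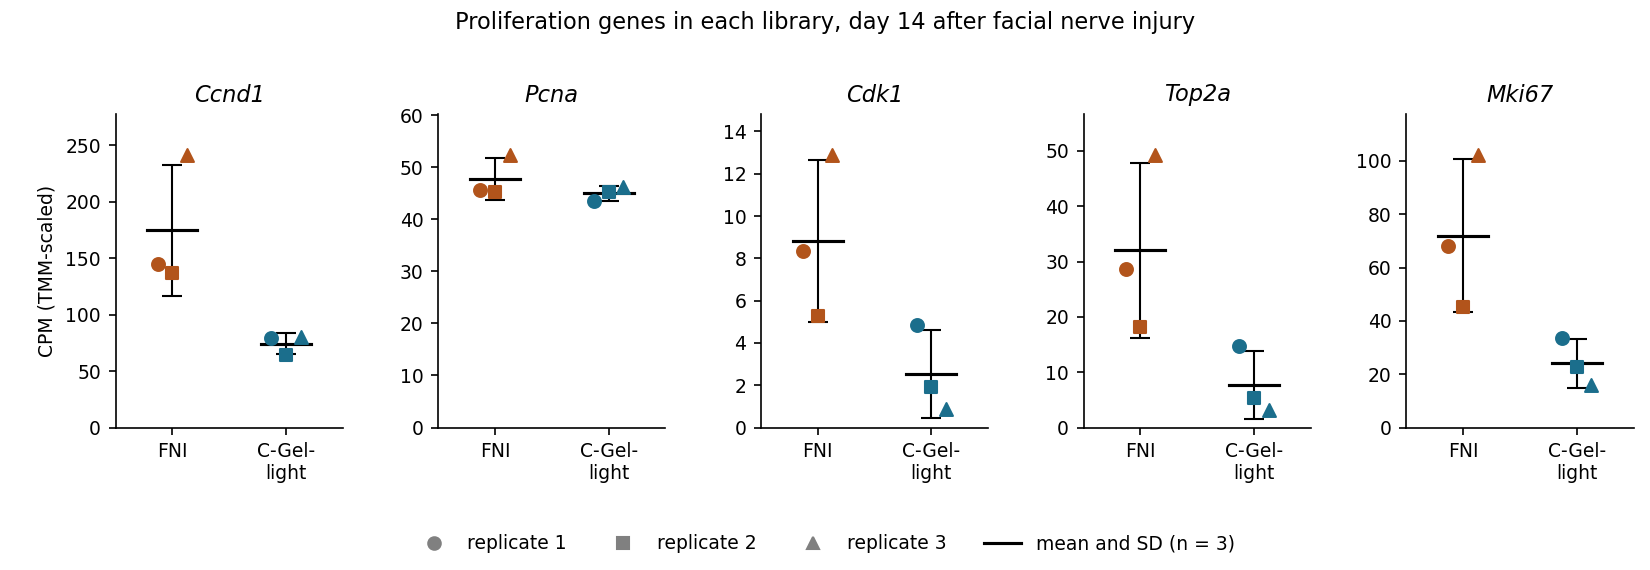
Level of each gene in each library, in CPM with TMM-scaled library sizes, on axes that start at 0. Points are libraries, with the replicate shown by shape, and bars are the mean and SD of 3 libraries. The groups do not overlap for Ccnd1, Cdk1, Top2a and Mki67, while those of Pcna do.

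The promoters are shown to give the short motifs, known from cell cycle genes, that each holds. No value here tests whether these motifs bear on the levels, and Ccnd1, which was also lower with C-Gel-light, is not among the promoters. The sequences are the 250 bases before the annotated start, from RefSeq on build GRCr8, which held 4 of the 5 genes. They are written 5′ to 3′ on the strand of the gene. Capitals mark 2 motifs on either strand. These are the CHR (cell cycle genes homology region), searched as TTTGAA or TTCGAA and known as the element that the DREAM and MuvB complexes bind, and the CCAAT box, known as the site of NF-Y.
Cdk1, chr20:19265043-19265292, plus strand: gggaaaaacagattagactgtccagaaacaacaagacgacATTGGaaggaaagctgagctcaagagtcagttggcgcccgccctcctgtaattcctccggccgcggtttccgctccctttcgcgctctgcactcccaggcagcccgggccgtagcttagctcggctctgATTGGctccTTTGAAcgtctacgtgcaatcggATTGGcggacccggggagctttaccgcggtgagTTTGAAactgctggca
Top2a, chr10:84473094-84473343, minus strand: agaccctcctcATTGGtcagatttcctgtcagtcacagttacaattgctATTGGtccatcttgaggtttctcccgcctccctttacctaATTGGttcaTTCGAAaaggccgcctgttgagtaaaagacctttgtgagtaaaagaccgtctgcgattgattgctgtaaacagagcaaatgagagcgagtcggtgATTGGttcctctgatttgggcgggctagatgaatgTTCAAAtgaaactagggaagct
Mki67, chr1:199952594-199952843, minus strand: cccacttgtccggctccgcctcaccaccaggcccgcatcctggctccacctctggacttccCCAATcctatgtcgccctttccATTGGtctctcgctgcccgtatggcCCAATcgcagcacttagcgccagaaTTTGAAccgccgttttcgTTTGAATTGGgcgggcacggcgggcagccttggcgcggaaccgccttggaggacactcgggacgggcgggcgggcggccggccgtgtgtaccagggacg
Pcna, chr3:139955821-139956070, minus strand: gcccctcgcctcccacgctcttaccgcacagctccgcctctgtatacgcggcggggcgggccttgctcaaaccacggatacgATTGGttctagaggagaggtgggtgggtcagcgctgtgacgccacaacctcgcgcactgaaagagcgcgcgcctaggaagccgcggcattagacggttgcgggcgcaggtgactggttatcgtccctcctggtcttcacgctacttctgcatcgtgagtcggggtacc

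Cdk1, Top2a and Mki67 each held 2 CHR matches in this window, and Pcna held 0. CCAAT matches numbered 3 in Cdk1, 4 in Top2a, 4 in Mki67 and 1 in Pcna. In Mki67 a CHR match and a CCAAT match on the other strand share a base. Of all 33469 promoters in the table, 17.4% held a CHR match and 34% a CCAAT match. At least 2 CHR matches were found in 2.3% of promoters, and at least 3 CCAAT matches in 2.5%. Both together were found in 16 promoters (0.0478%). This combination was chosen after these sequences were seen, so that Cdk1, Top2a and Mki67 are among the 16 by that choice. The CHR nearest to the start lay 16 bases before it in Cdk1 and 22 bases before it in Top2a, and 99 bases before it in Mki67. An E2F match (TTTGGCGC, TTTCCCGC, TTTGGCGG or TTTCGCGC, either strand) was found in Cdk1 alone among the 4, as TTTCGCGC 133 bases before the start, and in 1.8% of all promoters. The Sp1 letters GGGCGG, present in 30.5% of promoters, occurred in all 4 genes, with 4 matches in Mki67. These are matches of letters and not sites shown to be bound.

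Ccnd1, the G1 cyclin, was the most abundant of the 5 genes. Its levels in FNI replicates 1 to 3 were 145, 137 and 241 CPM, and those with C-Gel-light were 78.8, 63.8 and 80.0 CPM. FNI replicate 3 stood above the other FNI libraries, and the highest C-Gel-light library was still below the lowest FNI library. The mean was 174 ± 58.1 CPM in FNI and 74.2 ± 9.05 CPM with C-Gel-light (SD, n = 3 each). On the log2 scale the fitted difference of Ccnd1 was -1.23 with an SE of 0.23 (adjusted p = 0.019 by edgeR), and 4.56% of tested genes had a lower one. Ccnd1 was no longer called without C-Gel-light replicate 1 or 2 (adjusted p = 0.053 and 0.064 by edgeR). Without FNI replicate 3 its log2 fold change was -0.93 and it was still called.

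Mki67, whose protein is the usual histological marker of cycling cells, was at 68.2, 45.4 and 102 CPM in FNI replicates 1 to 3. With C-Gel-light it was at 33.7, 22.7 and 15.8 CPM. The lowest FNI library, replicate 2, was therefore above the highest C-Gel-light library, replicate 1. Means were 71.9 ± 28.6 CPM in FNI and 24.0 ± 9.02 CPM with C-Gel-light (SD, n = 3 each). Fitted on the log2 scale, Mki67 changed by -1.58 with an SE of 0.36 (adjusted p = 0.034 by edgeR). The call was lost without any of 4 libraries: without C-Gel-light replicate 2 or 3, or FNI replicate 1 or 3, the adjusted p was 0.1, 0.072, 0.081 and 0.093 by edgeR. The log2 fold change of Mki67 in these fits lay between -1.24 and -1.62.

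Top2a, expressed from S phase to mitosis, was at 28.7, 18.1 and 49.3 CPM in FNI replicates 1 to 3. The values with C-Gel-light were 14.7, 5.25 and 3.09 CPM, again with replicate 1 the highest and nearest to FNI replicate 2. Its mean was 32.0 ± 15.8 CPM in FNI and 7.66 ± 6.15 CPM with C-Gel-light (SD, n = 3 each). The log2 fold change of Top2a, -2.06 (SE 0.61), was the furthest from 0 of the 5, and 1.68% of tested genes had a lower one. It did not pass the threshold (adjusted p = 0.066 by edgeR, unadjusted p = 0.012). Without C-Gel-light replicate 1, the library of its group nearest to FNI, it was -2.93 and passed (adjusted p = 0.034 by edgeR). With any other library left out Top2a did not pass (adjusted p from 0.065 to 0.19 by edgeR).

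Cdk1, the mitotic kinase, had the fewest counts. FNI replicates 1 to 3 held 233, 129 and 337 of them, and C-Gel-light replicates 1 to 3 held 122, 47 and 21. These correspond to 8.33, 5.28 and 12.9 CPM in FNI and to 4.86, 1.91 and 0.854 CPM with C-Gel-light. The groups did not overlap, but FNI replicate 2 and C-Gel-light replicate 1 were close. Their exact 95% Poisson intervals, 4.41 to 6.28 CPM and 4.04 to 5.8 CPM, overlapped, and such intervals cover counting error only. Means of Cdk1 were 8.84 ± 3.83 CPM and 2.54 ± 2.08 CPM (SD, n = 3 each), with a log2 fold change of -1.79 (SE 0.62). It did not pass the threshold (adjusted p = 0.098 by edgeR, unadjusted p = 0.024). Without C-Gel-light replicate 1, the library of its group nearest to FNI, the value was -2.66 and passed (adjusted p = 0.043 by edgeR). With any other library left out Cdk1 did not pass (adjusted p from 0.099 to 0.25 by edgeR).

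Pcna, the replication clamp, stayed within a narrow range in the 6 libraries. It was at 45.7, 45.2 and 52.4 CPM in FNI replicates 1 to 3 and at 43.5, 45.3 and 46.3 CPM with C-Gel-light. The groups overlapped, since 2 FNI libraries lay within the range of the C-Gel-light libraries. Its fitted log2 fold change was -0.09, with a 95% interval of -0.30 to 0.12 (adjusted p = 0.55 by edgeR). That interval does not reach the intervals of Ccnd1 and Mki67, which end at -0.69 and -0.72. This closeness depends on the scaling: with library totals in place of TMM factors its log2 fold change was -0.34, and the deposited FPKM, also scaled by totals, did not overlap between the groups. Under neither was Pcna called (adjusted p = 0.083 by edgeR with library totals).

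**Figure D2:**
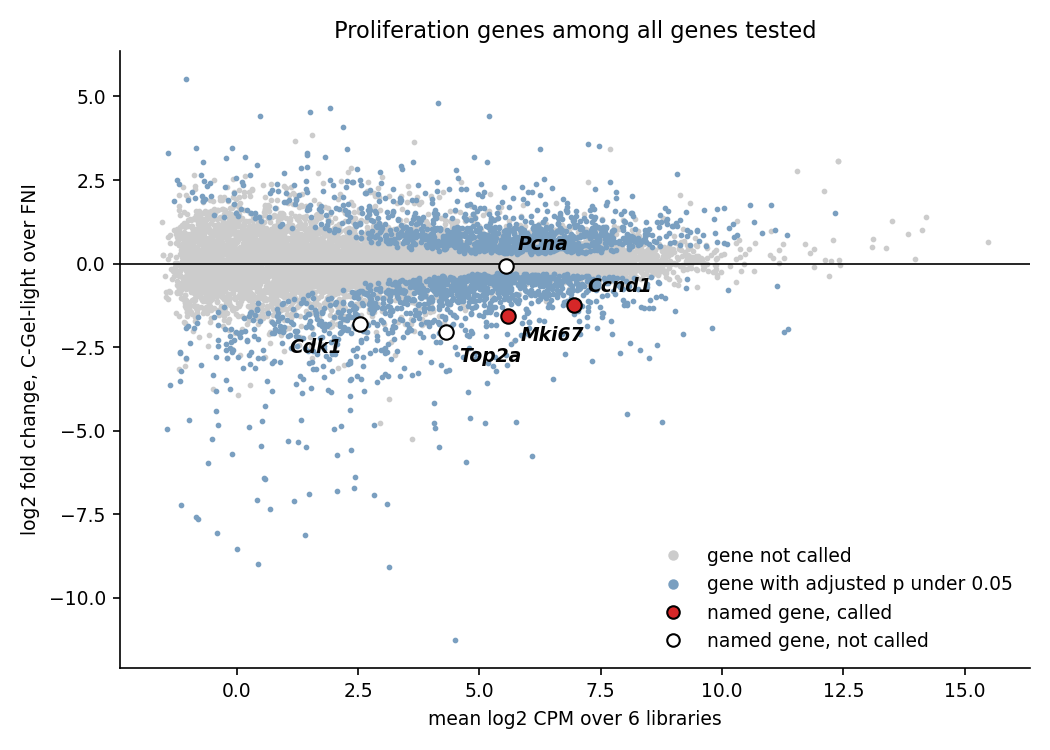
Log2 fold change (C-Gel-light over FNI) against mean log2 CPM for the 15581 genes tested, with the 5 genes marked. Ccnd1 and Mki67 (filled) were called, Top2a and Cdk1 lay lower but were not called, and Pcna lay near 0.

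The libraries of a group spread in a similar manner for the later cell cycle genes. FNI replicate 3 was the highest and FNI replicate 2 the lowest FNI library for each of the 5 genes. C-Gel-light replicate 1 was the highest and replicate 3 the lowest of their group for Mki67, Top2a and Cdk1. Ccnd1 did not share this, as its lowest C-Gel-light library was replicate 2, and Pcna was lowest in replicate 1. With C-Gel-light the highest library exceeded the lowest by 5.69-fold for Cdk1, 4.75-fold for Top2a and 2.13-fold for Mki67, against 1.25-fold for Ccnd1 and 1.06-fold for Pcna. In FNI these ratios were 2.44, 2.72, 2.25, 1.76 and 1.16 in the same order of genes.

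Per length, the levels formed an upper and a lower tier. In deposited FPKM the FNI means were 87.0 ± 32.6 for Ccnd1 and 35.5 ± 4.42 for Pcna (SD, n = 3), and the libraries of these genes did not overlap. Mki67, Cdk1 and Top2a followed with means of 8.03, 7.19 and 6.14 FPKM, and their ranges of 4.84 to 11.8, 4.10 to 10.8 and 3.32 to 9.73 FPKM overlapped. With C-Gel-light Ccnd1 was at 30.9 ± 4.76 and Pcna at 28.1 ± 2.66 FPKM, levels that overlapped. The lower tier was then at 2.19 ± 0.70 (Mki67), 1.66 ± 1.29 (Cdk1) and 1.18 ± 0.89 FPKM (Top2a), also overlapping. The order of the means was the same in both groups. The FPKM values imply gene lengths of 2208 bases for Ccnd1, 1473 for Pcna, 1356 for Cdk1, 5764 for Top2a and 9886 for Mki67.

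Ratios of genes within a library were compared for the 10 pairs of genes, as differences of log2 CPM. These values hold a prior count of 2, scaled by library size and added to each count. Such a ratio depends on how libraries are scaled only through that prior count, which weighs most at low counts. Relative to Pcna, Ccnd1 was 2.16-fold lower with C-Gel-light than in FNI, Mki67 2.8-fold, Cdk1 3.78-fold and Top2a 4.44-fold lower. In each of these 4 pairs the libraries of the groups were apart. The two-sided exact permutation p was 0.1, the smallest that 3 against 3 libraries allow (0.2 after Benjamini-Hochberg adjustment over the 10 pairs). The 4 pairs share Pcna, which varied little, and the same 4 genes were already apart in CPM. That held for 20.8% of all tested genes in CPM, and the share relative to Pcna was not computed. The sizes depend on single libraries. The log2 difference of Pcna to Cdk1, 1.92 over all libraries, was 2.56 without C-Gel-light replicate 1 and 1.31 without C-Gel-light replicate 3. That of Pcna to Top2a, 2.15, was 2.79 and 1.64 without these libraries, and that of Pcna to Mki67, 1.49, was 1.79 and 1.2. Ccnd1 to Pcna ran from -1.22 to -0.92 with any library left out. The log2 ratio of Pcna to Mki67, for example, was -0.96 to -0.01 in FNI and 0.37 to 1.55 with C-Gel-light, so Mki67 had the higher CPM in every FNI library, by less than counting error in replicate 2, and Pcna in every C-Gel-light library.

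Among the other 4 genes the log2 ratio of Ccnd1 to Top2a was higher by 1.04 with C-Gel-light (2.06-fold), close in size to the difference of Ccnd1 to Pcna, and that of Ccnd1 to Cdk1 by 0.81 (1.75-fold). In both pairs the libraries overlapped (exact permutation p = 0.2 and 0.4). Without C-Gel-light replicate 1 these differences were 1.61 and 1.38, and without C-Gel-light replicate 3 they were 0.49 and 0.17. Cdk1 to Top2a differed least between the groups, with a log2 ratio of -1.82 ± 0.09 in FNI and -1.59 ± 0.17 with C-Gel-light (SD, n = 3). The difference was 0.23, and the groups all but touched at -1.76 (exact permutation p = 0.1). This separation and its p rest on the prior count. Without it the ratio of C-Gel-light replicate 3 lay between those of FNI replicates 1 and 3, so the groups overlapped. Counts of Cdk1 and Top2a were 21 and 76 in that C-Gel-light library, 233 and 802 in FNI replicate 1, and 337 and 1288 in FNI replicate 3. The log2 ratio of Top2a to Mki67 was lower by 0.66 on average with C-Gel-light, and that of Cdk1 to Mki67 by 0.43, but the libraries overlapped (exact permutation p = 0.3 and 0.4). Ccnd1 relative to Mki67 differed by 0.38 (exact permutation p = 0.5), and by 0.05 without C-Gel-light replicate 3. With 3 libraries per group, these p-values do not show that the genes responded alike.

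**Figure D3:**
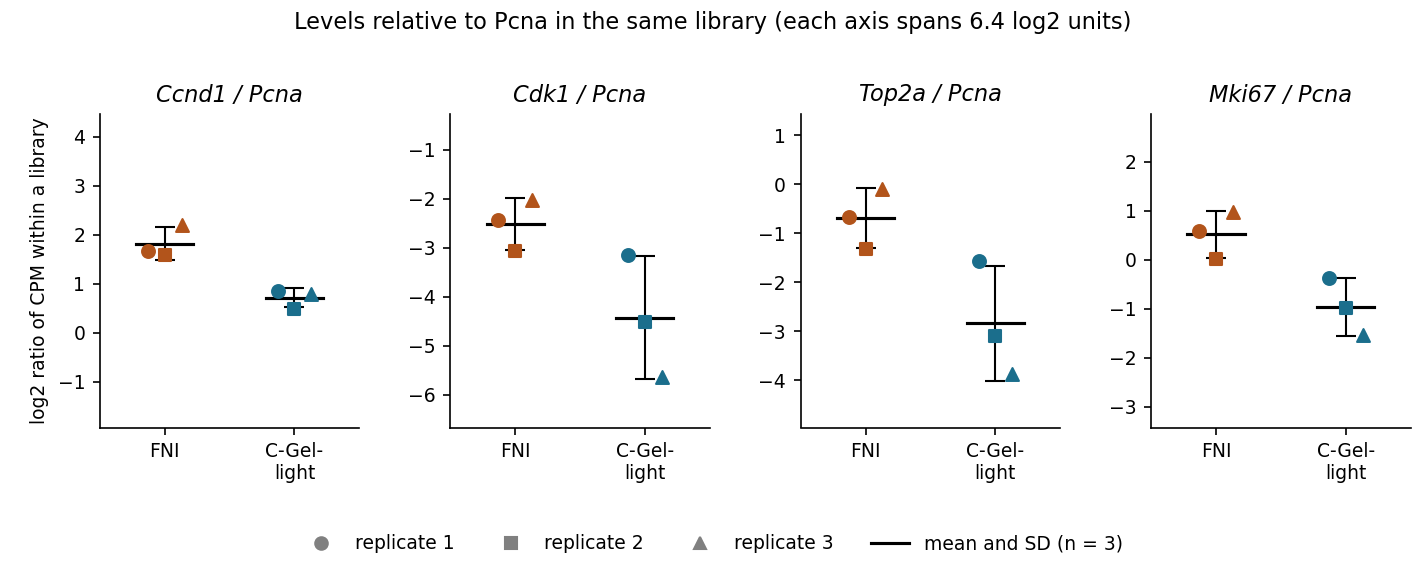
Log2 ratio of the CPM of Ccnd1, Cdk1, Top2a and Mki67 to that of Pcna in the same library, by group. Points are libraries, bars are the mean and SD of 3 libraries, and each axis spans the same number of log2 units. In each panel all C-Gel-light libraries lie below all FNI libraries. The panels share Pcna, and the share of all genes that lie so relative to Pcna was not computed.

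The pattern of Mki67 over the 6 libraries was set beside those of 13230 other genes whose log2 CPM averaged at least 1. The Pearson correlation of log2 CPM with Mki67 was 0.99 for Top2a, 0.97 for Cdk1, 0.91 for Ccnd1 and 0.59 for Pcna. In the order of likeness Top2a was the 42nd, Cdk1 the 96th, Ccnd1 the 571st and Pcna the 3689th of these genes. The most alike were ENSRNOG00000007805 and ENSRNOG00000011654, at 0.9987 and 0.9969, which are given by ID because the files do not name them. ENSRNOG00000007805 was at 4.69 ± 2.29 CPM in FNI and 1.07 ± 0.479 CPM with C-Gel-light, and ENSRNOG00000011654 at 7.49 ± 2.16 and 2.9 ± 0.875 CPM (SD, n = 3). The points share their libraries and the difference between groups, so these correlations over 6 libraries are descriptions.

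**Figure D4:**
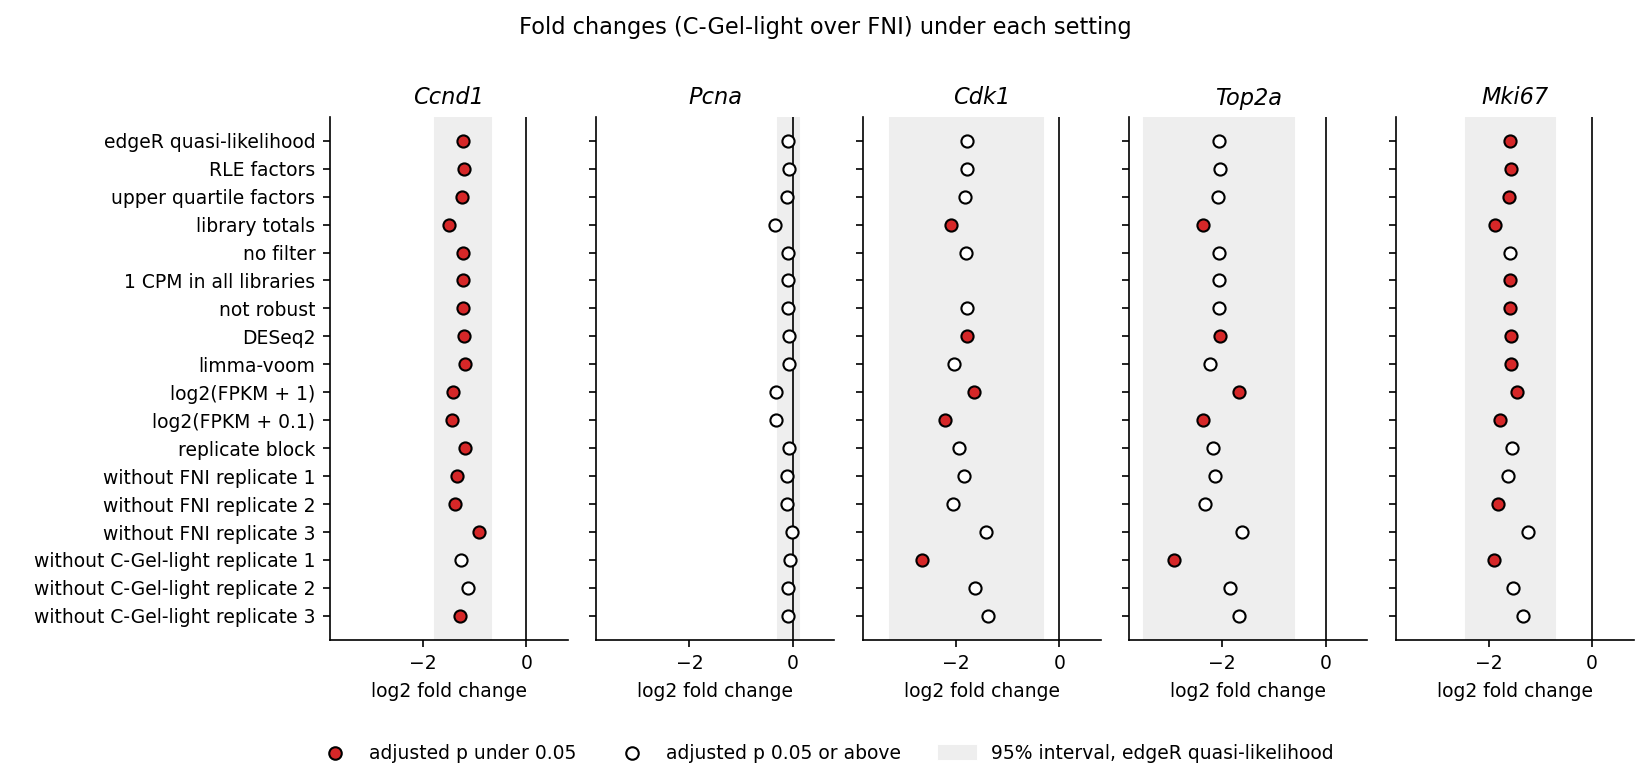
Log2 fold change of each gene (x axis) under each processing setting (y axis), with the 95% interval of the edgeR quasi-likelihood fit shaded. Filled points passed an adjusted p under 0.05. All points of Ccnd1, Cdk1, Top2a and Mki67 lie below 0, while which of them passed varies with the setting.

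The direction of Ccnd1, Mki67, Top2a and Cdk1 was the same under the 17 settings tried (16 for Cdk1, which a stricter filter removed), as groups that do not overlap all but fix it. The calls were less stable, and DESeq2 and the fits on library totals or FPKM called 4 of the 5 genes, all but Pcna. Those settings also called more of all tested genes, 23.2% to 25.3% against 14.8%. RefSeq lists 3 pseudogenes named after Pcna and 1 each named after Cdk1 and Mki67. How reads shared with such copies were counted was not given in the sources used here, which leaves these 3 levels uncertain to that extent.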

How the data were processed

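Poly(A)-enriched RNA of 6 libraries was sequenced. The authors deposited raw counts per Ensembl gene ID and FPKM values per library. The submitters' processing notes name STAR 2.4.2a, RSEM 1.2.29, fastp 0.22.0 and the build mRatBN7.2, with no role or order. If RSEM made the counts, they are rounded estimates. The 5 genes and their symbols came with the selection and, like the lists and motifs, were chosen with earlier results of these data known. No table at hand paired IDs with symbols (0 of 47357 RefSeq genes carried an Ensembl ID), so the lists of other cell cycle genes and of cell type markers could not be used. The named genes are the 5 members and, by rule, the 2 IDs most correlated with Mki67.

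Counts were fitted with edgeR 4.0.16 in R 4.3.3, after filterByExpr with a minimum count of 10 and with TMM factors. The fit was robust quasi-likelihood with group as the only term. It was also run on counts simulated with library totals as the only scaling, which cannot bear on the choice of scaling. An SE is the absolute log2 fold change over the square root of F. CPM uses TMM-scaled library sizes, and log2 CPM a prior count of 2. Alternatives were upper quartile and RLE factors, scaling by totals, 2 other filters, no robust step, DESeq2 1.42.0, limma-voom and limma on log2 FPKM (limma 3.58.1, pseudocounts 1 and 0.1), the replicate block, a threshold of 0.1, and each library left out. Leaving libraries out of the ratios was added after seeing the data. Promoter sequences are those of RefSeq on GRCr8, a build other than that of the counts.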

Additional observations from a re-analysis of the deposited data

How the results depend on the processing

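Against 2 of the 5 genes called, 4 were called by DESeq2, with library totals, on log2(FPKM + 1) and log2(FPKM + 0.1), and at an adjusted p under 0.1. With no filter and with the replicate block 1 was called. The share of all tested genes called was 23.2% by DESeq2, 25.3% with library totals, and 23.5% and 24% on these FPKM values. It was 9.76% with no filter and 12.8% with the replicate block, against 14.8% in the fit reported above. At an adjusted p under 0.1 it was 3876 of 15581 genes. Cdk1 passed, at log2 fold changes of -1.78 by DESeq2, -2.10 with library totals, -1.65 with FPKM + 1 and -2.21 with FPKM + 0.1. Top2a passed at -2.04, -2.37, -1.68 and -2.37 in the same settings. Mki67 missed the threshold with no filter, at -1.58 (adjusted p = 0.083 by edgeR), and with the replicate block. With no filter 22044 genes were tested, and why the adjusted p of Mki67 rose was not tested. Library totals moved the median log2 fold change of all tested genes to -0.26, from -0.01 with TMM factors. These factors did not overlap between the groups, at 0.866 to 0.983 with C-Gel-light and 1.05 to 1.14 in FNI. The cause of that split was not tested.

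Leaving out 1 library gave 0 to 3 called of the 5, where 5.03% to 10.8% of all tested genes were called (14.8% with all libraries). The log2 fold change then ran from -1.38 to -0.93 for Ccnd1, -1.90 to -1.24 for Mki67, -2.93 to -1.61 for Top2a, -2.66 to -1.37 for Cdk1 and -0.12 to -0.01 for Pcna. Without C-Gel-light replicate 2 edgeR called 0 of the 5 (2 at an unadjusted p under 0.05), limma-voom 0 and DESeq2 2. Of all tested genes edgeR then called 7.23%, and the shares for limma-voom and DESeq2 were not computed. Nor was the share at an unadjusted p under 0.05, which 5054 of 15581 genes had by edgeR with all libraries. Over all alternatives the adjusted p of Mki67 ran from 0.00013 to 0.1, that of Ccnd1 from 1e-05 to 0.064, that of Top2a from 0.022 to 0.19 and that of Cdk1 from 0.015 to 0.25. None of the log2 ratios between genes changed sign in the 7 alternatives tried, but with a library left out the difference between groups ran from 0.05 to 0.61 for Ccnd1 to Mki67, 0.17 to 1.38 for Ccnd1 to Cdk1, 0.49 to 1.61 for Ccnd1 to Top2a, -0.77 to -0.11 for Cdk1 to Mki67, -1 to -0.44 for Top2a to Mki67 and 0.15 to 0.32 for Cdk1 to Top2a.

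Of all genes, 2301 were called (1101 higher, 1200 lower), and the fits on 5 libraries gave 797 to 1726 (335 to 864 and 462 to 889). DESeq2 gave 3618 (1903 higher), library totals 3937 (645 and 3292), FPKM + 1 3654 (615 and 3039), FPKM + 0.1 3741 (632 and 3109) and an adjusted p under 0.1 3876 (1909 and 1967). Of the called genes 47.8% were higher with TMM factors and 16.4% with library totals. The cause was not tested.

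With the replicate block, 1999 genes were called, with Mki67 at -1.55 with an adjusted p of 0.071 by edgeR. Libraries of the same number did not deviate together (correlations of -0.06, 0.03 and 0.09 across genes), and 3 of 6 correlated best with their own number. Of the 5 genes Cdk1 had the fewest counts, 21 in its lowest library.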
